A study of Mus musculus with 8 samples.

Results

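Semaphorins, their plexin receptors and the neuropilin co-receptors were examined by RNA-seq in AML-12, a mouse hepatocyte cell line. The members were all rows of the count table whose symbol begins with Sema3 to Sema7 or with Plxna, Plxnb, Plxnc or Plxnd, together with Nrp1 and Nrp2. This rule found 31 of 21983 genes, made up of 20 semaphorins, 9 plexins and 2 neuropilins. The series compared 4 control libraries, labelled WT and carrying pLKO.1, a lentiviral vector, with 4 libraries labelled as overexpressing GM47544. The overexpression titles name no vector, and all cells were kept in the same serum-supplemented medium. The series title links GM47544, a long non-coding RNA, to the ubiquitination of the apolipoprotein APOC3. The comparison therefore asked which transcripts differ between libraries with these labels. Any difference of vector between the groups cannot be told apart from the overexpression of GM47544. Whether the 4 libraries of each group stem from different cultures is not stated, and the p-values then reflect library-to-library spread that may be technical. The level of GM47544 itself was not analysed here, so the labels could not be checked on the targeted gene.

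Semaphorins are secreted or membrane-bound guidance proteins that share a sema domain, and they act on cell shape, adhesion and migration. Class 3 semaphorins are secreted and mostly signal through a complex of a neuropilin, which binds the ligand, and a class A plexin, which carries the signal. Classes 4 to 7 are tied to the membrane and bind plexins directly: class 4 mainly B plexins, class 6 A plexins, and Sema7a the plexin Plxnc1 and beta-1 integrins. Plexins act through an intracellular domain that switches off small GTPases. In liver, these genes are known from endothelial and stellate cells as well as from hepatocytes.

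Sequence upstream of the start site is shown for 5 genes whose transcripts differed between the groups. They are Sema6d and Sema6b, ligands of the same class that moved in opposite directions, Sema3e and Plxnd1, a ligand and its direct receptor, and the class A plexin Plxna3. Each run holds the 250 bases before an annotated start in RefSeq on GRCm38.p6, read 5′ to 3′ on the gene's strand, and capitals mark GGGCGG or its reverse complement, the GC box bound by Sp1-type factors. For Sema6d and Sema6b, which have 2 annotated starts each, the more upstream start is shown, and counts per gene do not tell which start was used.
Sema6d, chr2:124089719-124089968, plus strand: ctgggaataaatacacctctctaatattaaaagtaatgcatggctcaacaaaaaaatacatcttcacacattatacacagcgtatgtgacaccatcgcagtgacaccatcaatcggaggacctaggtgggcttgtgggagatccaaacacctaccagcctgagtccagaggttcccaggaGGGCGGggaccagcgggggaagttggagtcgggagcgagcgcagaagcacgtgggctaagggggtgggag
Sema6b, chr17:56140344-56140593, minus strand: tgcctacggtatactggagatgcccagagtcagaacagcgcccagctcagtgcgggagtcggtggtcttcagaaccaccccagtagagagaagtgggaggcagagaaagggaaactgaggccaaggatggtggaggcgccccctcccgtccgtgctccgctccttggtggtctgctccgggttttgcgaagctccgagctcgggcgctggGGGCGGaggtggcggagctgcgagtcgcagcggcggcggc
Sema3e, chr5:14025026-14025275, plus strand: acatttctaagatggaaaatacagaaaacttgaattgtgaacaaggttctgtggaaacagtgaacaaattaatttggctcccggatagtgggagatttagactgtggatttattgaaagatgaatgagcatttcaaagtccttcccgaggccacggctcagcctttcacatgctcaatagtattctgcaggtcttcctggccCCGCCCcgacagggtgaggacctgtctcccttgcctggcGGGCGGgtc
Plxnd1, chr6:115995006-115995255, minus strand: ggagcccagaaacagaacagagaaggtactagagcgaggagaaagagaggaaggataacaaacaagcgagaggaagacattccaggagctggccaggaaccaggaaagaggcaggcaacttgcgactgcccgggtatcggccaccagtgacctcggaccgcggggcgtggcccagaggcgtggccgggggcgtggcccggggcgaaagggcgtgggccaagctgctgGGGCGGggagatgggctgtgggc
Plxna3, chrX:74328816-74329065, plus strand: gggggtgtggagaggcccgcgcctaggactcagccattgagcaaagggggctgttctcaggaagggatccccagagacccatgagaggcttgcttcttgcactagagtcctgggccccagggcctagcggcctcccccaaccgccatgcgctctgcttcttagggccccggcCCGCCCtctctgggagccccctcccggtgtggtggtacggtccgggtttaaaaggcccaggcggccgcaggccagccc

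The RefSeq table held 37 starts for 26 of the 31 members. GGGCGG, searched on both strands, was present before 27 of these starts (73%), against 32.7% of the 32851 windows of the same length for all genes. The motif holds only G and C, and the windows for all genes were not matched for GC content. In the member windows GC content ran from 40.8% (Sema3a) to 78.4% (Sema3c). Some members count more than once, Sema4a with 4 starts, and members under the count filter are included. Whether the shares differ beyond base composition was not tested. The gene that fell (Sema6b) and the genes that rose (Sema6d, Plxnd1 and Plxna3) each had 1 match and Sema3e had 2, so the motif did not separate the directions among these 5. TATAAA was found before none of the 37 starts (12.4% of all windows), CCAAT before 7 (33.8%), the AP-1 site TGACTCA before 2 (4.46%) and the E-box CACGTG before 2 (6.02%). A match describes the sequence and is not a binding site.

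Library totals ran from 11016907 to 18965662 counts. Levels are given as CPM (counts-per-million of the scaled library size), and as CPM per kb of exon where genes are compared with each other. Control library 3 stood apart: it lay at -22.2 on the first principal component (82.5% of the variance), whereas its 3 fellow controls ranged from -60.7 to -50 and all overexpression libraries from 43.4 to 50.4. The hepatocyte label was checked on 11 markers, all of which passed the count filter. Apoa1 (0.8 CPM in controls, 1.02 with overexpression) and Tat (1.29 and 0.996 CPM) lay close to the filter level of 0.737 CPM. With overexpression 2 of the 11 (18.2%) were higher and 4 (36.4%) lower, beside 32.3% and 32.1% of all genes tested. The median log2 fold change of the 11 was -0.25. Their summed level, mostly Krt8 and Krt18, was 4715 to 7340 CPM in controls and 4520.3 to 4940.5 CPM with overexpression. Krt8 was at 2169 ± 557 and 2209 ± 129 CPM and Hnf4a at 348 ± 23.7 and 310.1 ± 4.51 CPM (SD, n = 4, controls first), and neither passed the test. Alb was higher, at 22.3 ± 3.85 and 267 ± 28.2 CPM, as was Apob (log2 fold change 0.76), whereas Ttr was lower, at 1320.2 ± 239 and 278 ± 24.2 CPM, as were Serpina1a (-1.69), Krt18 (-0.59) and Foxa2 (-0.39). Of 6 cholangiocyte markers, 4 passed the filter and Epcam had 1 count in all. Spp1 was higher, at 942 ± 209 and 2729 ± 114 CPM, Krt19 (2252 ± 569.6 and 1700.4 ± 142 CPM) and Sox9 (91.2 ± 9.52 and 57.9 ± 0.91 CPM) were lower, Krt7 did not pass, and the summed level was 2787 to 4137 CPM in controls and 4472 to 5072 CPM with overexpression. Of 8 endothelial markers, 7 were under 1 CPM in both groups, Kdr had 1 count, and the summed level was 0.187 to 0.75 CPM in controls and 1.46 to 2.18 CPM with overexpression, where Cdh5 gave most of it. Of 9 stellate or fibroblast markers, Col1a2, Col3a1 and Lrat had 0 counts, 7 were under 1 CPM in both groups, and the summed level was 3.62 to 5.47 CPM in controls and 9.85 to 17.5 CPM with overexpression, mostly Des. The leukocyte markers Adgre1, Clec4f and Cd3e had 0 counts, and the 7 markers summed to 27.1 to 32.7 CPM in controls and 10.3 to 13.5 CPM with overexpression, most of it Csf1r. Of 6 neuron or glia markers Sox10 had 0 counts, and the sum, mostly Snap25, was 3.15 to 7.68 and 20.1 to 25 CPM. The part of these markers in the results below was not tested.

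Per kb of exon, control AML-12 cells made chiefly 2 plexins and 1 semaphorin of this group. Plxnb2, the receptor of several class 4 semaphorins, had the highest level in controls at 149 ± 21.1 CPM per kb (SD, n = 4), and Sema3c followed at 75.8 ± 20.9 and Plxna1, the main class A plexin here, at 42 ± 5.53. In the overexpression libraries Sema3c came first at 198 ± 8.37 CPM per kb, above Plxnb2 at 127 ± 2.83 and Plxna1 at 44.7 ± 0.734 (SD, n = 4). The next levels in controls, Plxnb1 at 14.3 ± 1.59, Sema4b at 14.1 ± 2.64 and Sema3f at 13.4 ± 2.45 CPM per kb, lay within each other's spread. At the low end, 9 of the 31 members did not pass the count filter, which asked for at least 10 counts, scaled for depth, in 4 libraries. They were Sema3d, Sema3g, Sema4f, Sema5a, Sema5b, Sema6a, Sema7a, Plxna4 and Plxnc1.

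**Figure D1:**
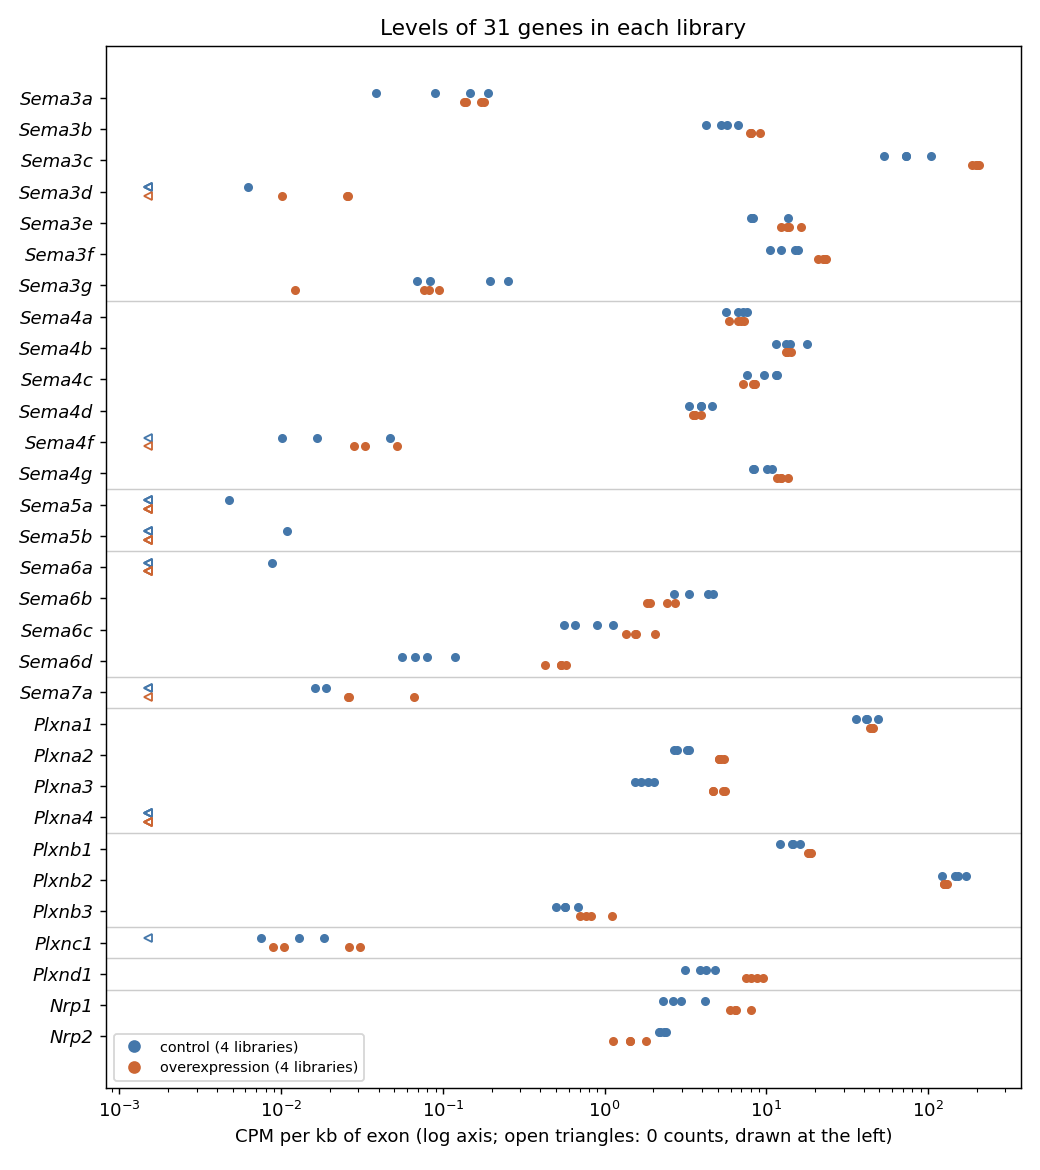
Level of each of the 31 genes in each of the 8 libraries, in CPM per kb of exon on a log axis, with controls in blue, overexpression libraries in orange and classes divided by lines; open triangles are libraries with 0 counts. Sema3c moves from 75.8 to 198 CPM per kb on average and passes Plxnb2. The 9 genes that did not pass the count filter lie toward the left. Of these, Sema3g averages 0.15 CPM per kb in controls, above the tested Sema3a (0.116) and Sema6d (0.0803).

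Among the 22 members tested, 13 had higher and 2 lower counts in the overexpression libraries at an adjusted p under 0.05 (quasi-likelihood test of edgeR, Benjamini-Hochberg adjusted over all tested genes). Over all 11520 genes tested, 64.4% passed in either direction, 32.3% higher and 32.1% lower, so a call alone is common in this comparison. The shares among members were 59.1% higher and 9.09% lower, and their median log2 fold change was 0.50 against 0.00041 for all genes. Changes of at least 2-fold upward were found for 6 members (27.3%), against 11.5% of all genes, and of at least 2-fold downward for none, against 9.02%. The 4 overexpression values lay above all 4 control values for 12 members (54.5%), against 28.5% of all genes, and below them for 1 (4.55%), against 27.5% (55.9% of all genes were apart in either direction). Members are long genes, however, and long transcripts as a whole were higher with overexpression, as described at the end.

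**Figure D2:**
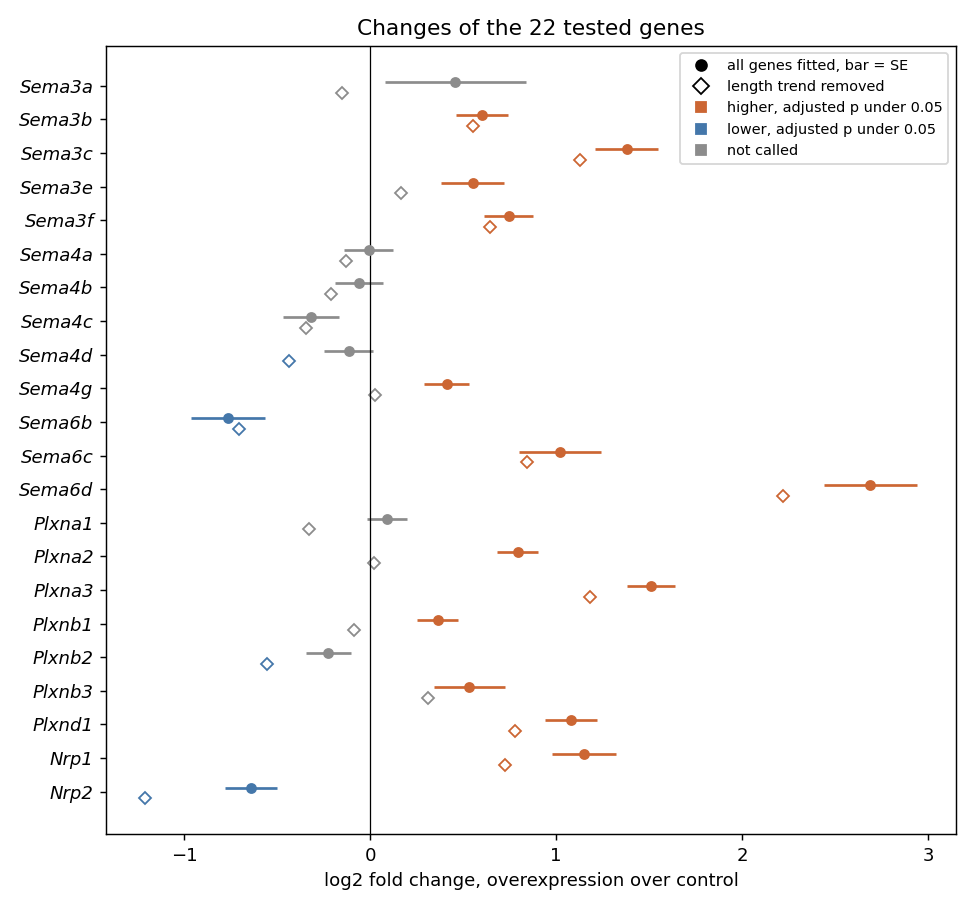
Log2 fold change of each of the 22 tested genes, overexpression over control. Filled circles with bars give the fit across all genes with its SE, open diamonds the same fit with the trend on exonic length removed, orange and blue mark adjusted p under 0.05; 13 genes are higher and 2 lower in the first, 8 higher and 4 lower in the second.

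Of the 7 secreted class 3 semaphorins, 5 were tested and 4 of these (80%) had higher counts, beside 32.3% of all genes. Sema3a did not pass, Sema3d and Sema3g were under the filter, and with the length trend removed 3 of 5 were higher, beside 29.4% of all genes. Sema3c, a ligand of neuropilin and plexin complexes known for its part in heart outflow and vessel development (chromosome 5, 17574281 to 17730268, plus strand, GRCm38), was at 518, 523, 742 and 382 CPM in control libraries 1 to 4 and at 1329.6, 1429.6, 1413 and 1472 CPM in overexpression libraries 1 to 4. Every overexpression library was above every control, and control 3 was the highest control. The fitted log2 fold change of Sema3c was 1.38 (SE 0.17, adjusted p = 2.04e-05, edgeR), and 1.55 without control library 3. Sema3c supplied 48.9 ± 9.41% of all semaphorin counts per kb in controls and 67.8 ± 1.32% with overexpression (SD, n = 4), and the summed level of the 20 semaphorins was 153 ± 13.4 against 291 ± 6.81 CPM per kb, a ratio of 1.9.

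Sema3f and Sema3b lie 72.3 kb apart on chromosome 9 with 3 other measured genes between them. Sema3f, a repulsive ligand that prefers Nrp2 (chromosome 9, 107681500 to 107710475, minus strand), was at 78.6, 64.1, 54.4 and 81.5 CPM in controls and 108, 122, 117 and 119 CPM with overexpression, with no overlap (log2 fold change 0.74, SE 0.13, adjusted p = 0.000374, edgeR). Sema3b, first known as a tumour suppressor candidate, was at 27.3, 25, 20.2 and 32.1 CPM in controls and 38.6, 38.3, 43.7 and 37.6 CPM with overexpression, again with no overlap (log2 fold change 0.60, SE 0.14). For both genes control library 3 was the lowest control.

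Sema3e differs from its class in binding Plxnd1 without a neuropilin, and it shares a stretch of chromosome 5 with Sema3d, Sema3a and Sema3c. It was at 75.1, 77.2, 126 and 75.4 CPM in control libraries 1 to 4 and 151, 129, 115 and 124 CPM with overexpression. Control library 3 reached the overexpression range, and the other controls did not. For Sema3e the fitted log2 fold change came to 0.55 (SE 0.17, adjusted p = 0.0117, edgeR) and 0.74 without that library. It was 0.16 with the trend on exonic length removed and 0.17 with the trend on GC content removed, and the call was lost in both (adjusted p = 0.251 and 0.158, edgeR). Sema3a, the founding axon repellent and a ligand of Nrp1, was low at 2.03, 0.536, 2.62 and 1.23 CPM in controls and 2.48, 2.37, 1.92 and 1.86 CPM with overexpression. Its groups overlapped (log2 fold change 0.46, SE 0.38), although the gene passed without control library 3 (log2 fold change 0.85, adjusted p = 0.0373, edgeR). The value was -0.15 with the length trend removed and 0.09 with the GC trend removed, and neither passed (adjusted p = 0.719 and 0.825, edgeR). Sema3d had 1 count over the controls and 8 over the overexpression libraries, which is a depth-adjusted ratio of 8.62 (exact 95% interval for counting error alone, 1.16 to 383). Sema3g had 37 and 15 counts, a ratio of 0.437 (0.223 to 0.815).

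Most of the membrane-bound class 4 semaphorins showed no difference past the test, and the class sum was 44.3 ± 6.82 CPM per kb in controls and 44.5 ± 1.09 with overexpression (SD, n = 4). Of the 5 tested, 1 was higher (Sema4g) and 0 lower, beside 32.3% and 32.1% of all genes. Sema4g was at 87.6, 72.9, 71.6 and 93.3 CPM in controls and 118, 107, 101 and 106 CPM with overexpression (log2 fold change 0.41, SE 0.12, adjusted p = 0.00836, edgeR). The value was 0.024 with the length trend removed. Sema4b, the most abundant of the class per kb in both groups, was at 79.9 ± 14.9 and 76.6 ± 2.75 CPM (log2 fold change -0.06, SE 0.13). Sema4a, which also acts on immune cells, was at 36.5 ± 4.47 and 36.2 ± 3.17 CPM (-0.01, SE 0.13). Both turned upward and passed with the trend on GC content removed. Sema4d, the ligand of Plxnb1, was at 30.3, 30.3, 25.6 and 35.2 CPM in controls and 27.7, 26.9, 30.2 and 27.2 CPM with overexpression, which overlap (log2 fold change -0.12, SE 0.13). Sema4c, a ligand of Plxnb2, was at 46.3 ± 8.88 and 37.2 ± 2.76 CPM (-0.32, SE 0.15, adjusted p = 0.0717, edgeR). Sema4c and Sema4d were lower and passed without control library 3 (edgeR, adjusted p = 0.000288 and 0.0475). With the GC trend removed their log2 fold changes were 6.4e-05 and 0.12, and neither passed. Sema4f had 6 and 9 counts (ratio 1.62, 95% exact interval 0.514 to 5.52).

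Class 6 semaphorins, transmembrane ligands of the A plexins, moved in opposite directions. Of the 3 tested, 2 were higher and 1 lower, beside 32.3% and 32.1% of all genes. Sema6d (chromosome 2, 124089969 to 124667770, plus strand) had the largest fold change among the 22 tested members: 0.707, 0.59, 1.25 and 0.845 CPM in controls against 4.54, 6.11, 5.66 and 5.66 CPM with overexpression. The groups were far apart (log2 fold change 2.69, SE 0.25, adjusted p = 2.79e-06, edgeR), a value that 98.9% of all tested genes did not exceed. Only 2 of the 4 controls reached the filter level of 0.737 CPM, so the gene passed the filter through the overexpression libraries. Sema6c was at 5.3, 3.91, 3.31 and 6.68 CPM in controls and 8.05, 9.14, 12.1 and 9.3 CPM with overexpression (log2 fold change 1.02, SE 0.22, adjusted p = 0.00131, edgeR), with no overlap.

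Sema6b (chromosome 17, 56123085 to 56140343, minus strand) went the other way. It was at 18.5, 13.2, 10.7 and 17.4 CPM in controls and 10.8, 7.6, 9.58 and 7.22 CPM with overexpression, where overexpression library 1 just reached control library 3. It had a fitted log2 fold change of -0.76 (SE 0.20, adjusted p = 0.00442, edgeR). The ratio of Sema6d to Sema6b in counts per kb was 0.0144, 0.0168, 0.044 and 0.0182 in controls and 0.158, 0.302, 0.222 and 0.294 with overexpression, so Sema6b remained the more abundant in every library. Their exonic lengths are 10559 and 3968 bases, a difference that bears on this ratio. The summed class 6 level was 4.66 ± 1.14 and 4.36 ± 0.49 CPM per kb.

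Sema5a, Sema5b and Sema6a had 1 count each over the controls and 0 over the overexpression libraries, and Plxna4 had 0 in all 8. A count of 0 over a group allows up to 0.0508 CPM in controls and 0.0548 CPM with overexpression (3 counts, counting error only). Sema7a, the membrane-anchored ligand of Plxnc1, had 2 and 6 counts (ratio 3.23, 95% exact interval 0.578 to 32.8), and Plxnc1 itself had 5 and 9 (1.94, 0.584 to 7.37). Neither member of that ligand and receptor pair differed detectably at this depth.

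Of the receptors, 5 of 7 tested plexins (71.4%) had higher counts, beside 32.3% of all genes, while the 2 most abundant, Plxnb2 and Plxna1, did not pass. With the length trend removed 2 of 7 (28.6%), Plxna3 and Plxnd1, were higher and Plxnb2 was lower, beside 29.4% and 31.1% of all genes. Plxna3 (chromosome X, 74329066 to 74344689, plus strand), which with Plxna4 carries semaphorin 3 signals in neurons, rose most. It was at 13.3, 15.9, 12.2 and 14.6 CPM in controls and 36.9, 36.8, 42.7 and 43.7 CPM with overexpression, with a wide gap between the groups (log2 fold change 1.51, SE 0.13, adjusted p = 1.82e-06, edgeR). Plxna2, a receptor for class 3 and class 6 ligands, was at 48.4, 46.3, 56.8 and 55.1 CPM in controls and 93.6, 87.6, 87 and 89.4 CPM with overexpression (log2 fold change 0.79, SE 0.11, adjusted p = 5.11e-05, edgeR). With 17174 exonic bases it was the longest tested member, and its log2 fold change was 0.02 with the length trend removed (adjusted p = 0.878, edgeR). Plxna1 was at 374, 379.7, 323 and 445 CPM in controls and 405, 408, 411 and 396 CPM with overexpression, within the control range (log2 fold change 0.09, SE 0.11), and passed upward with the GC trend removed (0.40, adjusted p = 0.000256, edgeR). An antisense gene shares 10.7% of the Plxna1 exonic bases, and whether counting used strand is not stated.

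Plxnd1 (chromosome 6, 115954811 to 115995005, minus strand), the receptor of Sema3e and a known regulator of vessel growth, was at 30.9, 28.5, 22.9 and 34.9 CPM in controls and 54.6, 58.6, 69.8 and 63.9 CPM with overexpression. The groups did not overlap (log2 fold change 1.08, SE 0.14, adjusted p = 4.04e-05, edgeR). Control library 3 was the control farthest from the overexpression libraries here, whereas for Sema3e it was the nearest. The Plxnd1 call held with the length or GC trend removed, and that of its ligand Sema3e did not. The Sema3e over Plxnd1 ratio in counts per kb overlapped between groups, at 1.91, 2.13, 4.31 and 1.7 in controls and 2.17, 1.73, 1.29 and 1.52 with overexpression.

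The B plexins moved unequally. Plxnb1 (chromosome 9, 109095389 to 109119917, plus strand), the Sema4d receptor, was at 141, 139, 117 and 154 CPM in controls and 179, 174, 180.2 and 176 CPM with overexpression (log2 fold change 0.36, SE 0.11, adjusted p = 0.00991, edgeR). With the length trend removed it was -0.09 and did not pass. Plxnb2 (chromosome 15, 89155549 to 89180788, minus strand) was at 1189, 1136, 937 and 1331 CPM in controls and 967, 962, 1005 and 998 CPM with overexpression. The overexpression values lay between control 3 and the other controls (log2 fold change -0.22, SE 0.12, adjusted p = 0.11, edgeR), and the gene passed as lower without control library 3 (-0.34, adjusted p = 0.000788, edgeR) or with the length trend removed (-0.55). With the GC trend removed, Plxnb2 was at 0.09 and did not pass (adjusted p = 0.262, edgeR). Plxnb3 was low at 3.77 ± 0.498 and 5.52 ± 1.17 CPM (SD, n = 4), with a fitted log2 fold change of 0.53 (SE 0.19, adjusted p = 0.027, edgeR). The Plxnb3 call was lost without control library 1 or 3 or overexpression library 1 (edgeR, adjusted p = 0.0578, 0.0578 and 0.0951).

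Shares within a library do not depend on the scaling between libraries. Plxnb2 made up 70.2, 69.1, 68.3 and 69.5% of plexin counts per kb in controls and 60.4, 60.4, 60.5 and 61.1% with overexpression, so its share was lower in every overexpression library, control 3 included among the higher values. The Plxnd1 share was 1.87 ± 0.0805% and 4.02 ± 0.356%, and that of Plxna3 0.833 ± 0.0941% and 2.41 ± 0.183% (SD, n = 4). The summed plexin level was 214 ± 28.9 CPM per kb in controls and 210.1 ± 4.09 with overexpression, a ratio of 0.98 beside the 1.9 of the semaphorins. Sema4d over Plxnb1, ligand over receptor, was 0.269, 0.273, 0.273 and 0.285 in controls and 0.194, 0.193, 0.21 and 0.194 with overexpression, with no overlap although Sema4d alone did not pass.

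The 2 neuropilins, ligand-binding co-receptors that also bind VEGF, changed in opposite directions. Nrp1 (chromosome 8, 128358604 to 128503363, plus strand) was at 22.6, 28.9, 40.8 and 26 CPM in controls and 79, 63.9, 58.4 and 62.4 CPM with overexpression, all above the controls (log2 fold change 1.15, SE 0.17, adjusted p = 0.000106, edgeR). Nrp2 (chromosome 1, 62703285 to 62818695, plus strand) was at 25.9, 25.5, 28.3 and 27.4 CPM in controls and 21.3, 17, 13.4 and 17 CPM with overexpression, all below the controls (log2 fold change -0.64, SE 0.14, adjusted p = 0.00176, edgeR). The ratio of Nrp1 to Nrp2 in counts per kb was 1.06, 1.37, 1.75 and 1.15 in controls and 4.48, 4.55, 5.27 and 4.45 with overexpression. The exonic lengths of the 2 genes are close, at 9785 and 11842 bases, and both calls held in each of the 17 alternative analyses. With the length trend removed the log2 fold changes were 0.73 for Nrp1 and -1.21 for Nrp2. GC content differs more, at 41.9% for Nrp1 and 51.1% for Nrp2. With the GC trend removed both changes were smaller, at 0.76 and -0.53. Sema3f over Nrp2, the preferred pair, was between 4.38 and 6.91 in controls and between 11.6 and 19.9 with overexpression.

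**Figure D3:**
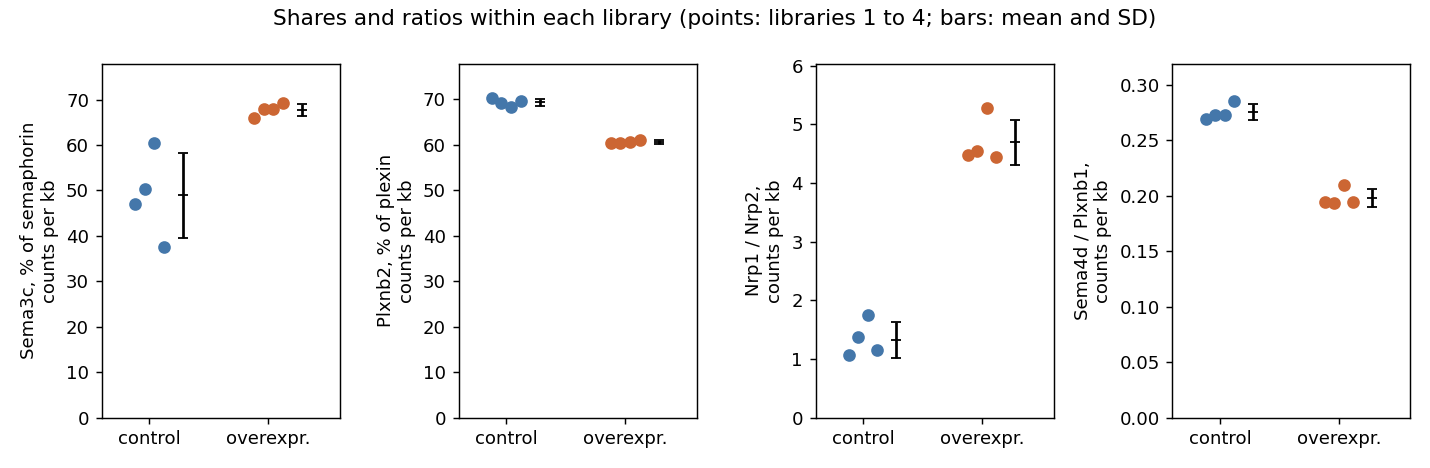
Share of Sema3c among semaphorins, share of Plxnb2 among plexins, and the ratios of Nrp1 to Nrp2 and of Sema4d to Plxnb1, all in counts per kb of exon within each library, with points for libraries 1 to 4 of each group and bars for mean and SD. No panel shows overlap of the groups; Nrp1 to Nrp2 goes from 1.33 ± 0.307 to 4.69 ± 0.389.

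The spread between libraries was not equal in the 2 groups. The coefficient of variation was larger in controls for 20 of 22 tested members, Nrp2 and Plxnb3 being the exceptions, with medians of 17.7% in controls, 10.8% without control library 3 and 8.09% with overexpression. Control library 3 was the highest control for 7 members (Sema3a, Sema3c, Sema3e, Sema6d, Plxna2, Nrp1 and Nrp2) and the lowest for the other 15. Among the 15 members that passed the test, it was the control nearest to the overexpression mean for 6 and the farthest for 9.

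Changes followed exonic length across the transcriptome. The median log2 fold change rose from -0.53 in the shortest of 5 equal length classes to 0.49 in the longest, and 59.5% of genes in that longest class had higher counts. The tested members had a median exonic length of 7699.5 bases, against 4463 for all tested genes. Of the 6399 tested genes within the members' range of lengths, 42.4% were higher and 20.3% lower, against 59.1% and 9.09% of members. These genes share only the range, and with a median of 6320 bases they were still shorter than the members. With the trend on length removed from each library, 8 of 22 members (36.4%) were higher and 4 (18.2%) lower, against 29.4% and 31.1% of all genes, and the members' median log2 fold change was 0.02. The 8 were Sema3b, Sema3c, Sema3f, Sema6c, Sema6d, Plxna3, Plxnd1 and Nrp1, and the 4 were Sema4d, Sema6b, Plxnb2 and Nrp2. The calls of Sema3e, Sema4g, Plxna2, Plxnb1 and Plxnb3 were lost. Removing the trend on GC content instead gave 15 higher and 2 lower members, against 35.8% and 35.7% of all genes. Without control library 3, which raised the calls over all genes to 38.7% higher and 38.7% lower, 13 members were higher and 5 (22.7%) lower. With limma-voom and quality weights 13 were higher and 4 lower, against 39.4% and 38% of all genes.

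**Figure D4:**
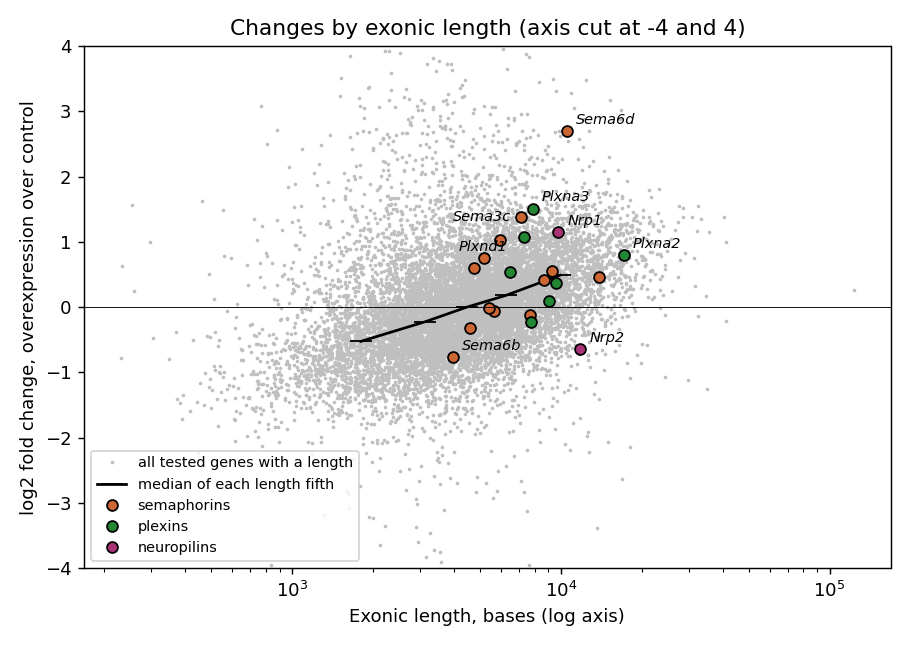
Log2 fold change against exonic length (log axis) for all tested genes with a length in grey, with semaphorins, plexins and neuropilins in colour and a line through the medians of 5 length classes. The line climbs from -0.53 to 0.49; Sema6d, Plxna3, Sema3c and Nrp1 lie above it and Nrp2 well below, and 65 genes beyond 4 in either direction are not drawn.

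Genes known to act with these ligands and receptors were listed in 4 sections, and 56 of 77 passed the count filter. Of these, 22 were higher (39.3%) and 11 lower (19.6%), beside 32.3% and 32.1% of all genes, and the median log2 fold change was 0.08. Among co-receptors and the VEGF system, 5 of 10 tested were higher (50%) and 2 lower (20%). Met, the HGF receptor that associates with B plexins, was at 192 ± 55.1 and 523 ± 23.8 CPM (log2 fold change 1.45) and Itga1, a partner of beta-1 integrin, at 261 ± 79.5 and 716 ± 33.7 CPM (1.46). Flt1, a VEGF receptor, had a log2 fold change of 0.95, which did not pass with the length trend removed, and Vegfb, a ligand of Flt1 and Nrp1, was lower at 158 ± 41.5 against 78.9 ± 8.7 CPM (-1.0). Vegfa was at 93.7 and 93 CPM on average, and Kdr was nearly absent.

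Among GTPases, their regulators and kinases, 9 of 28 tested were higher (32.1%, beside 32.3% of all genes) and 6 lower (21.4%, beside 32.1%). Rnd1, a small GTPase that binds plexin cytoplasmic domains, had 112 ± 21 CPM in controls and 17.6 ± 1.02 with overexpression (SD, n = 4), the lowest log2 fold change of the section at -2.67 (SE 0.15, adjusted p = 8.25e-08, edgeR). Rhod and Rras2 also fell, with log2 fold changes of -1.13 and -0.80, while Rock2, a kinase that acts on actin and myosin, rose by 1.69. Of the cytoskeletal effectors, 4 of 11 were higher (36.4%, beside 32.3% of all genes) and 1 lower (9.09%, beside 32.1%): Dpysl3, a collapsin response mediator, had a log2 fold change of 1.48, Mical3, of the actin-oxidising Mical family, 1.17 and Svil, an actin-binding protein, 0.74, whereas Gipc1, a scaffold that binds Plxnd1 and Nrp1, had -0.82. The Mical3 and Svil calls were lost with the length trend removed. Of the proteases, 4 of 7 were higher (57.1%, beside 32.3% of all genes) and 2 lower (28.6%, beside 32.1%). Furin, which cleaves class 3 semaphorins, fell from 346 ± 67.5 to 221 ± 8.64 CPM and its relative Pcsk6 from 63.5 ± 7.25 to 26.2 ± 1.72 CPM (SD, n = 4), log2 fold changes of -0.65 and -1.27. Adamts1, a secreted metalloprotease, rose from 138 ± 11 to 463 ± 38.5 CPM (1.74), and Adam10, a sheddase, had a log2 fold change of 0.81. With the length trend removed, 17 of the 56 genes (30.4%) were higher and 13 (23.2%) lower, beside 29.4% and 31.1% of all genes.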

How the data were processed

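The deposited table gives, for each gene symbol and each of the 8 AML-12 libraries, a whole-number read count with no normalization. FastQC, STAR, HTSeq and the build mm10 are named in the submitters' processing notes. No source states tool versions, gene annotation or strandedness. Sample titles gave groups and replicate numbers. Symbols were matched to GENCODE M21 (GRCm38) for exonic length, GC content and position (21926 of 21983). The analysis used edgeR 4.0.16 under R 4.3.3: filterByExpr (minimum count 10), trimmed-mean scaling, and a two-sided quasi-likelihood test on group alone, with Benjamini-Hochberg adjustment over all 11520 genes tested and a threshold of 0.05. SE was obtained as |log2 fold change| over the root of the F statistic. CPM uses library totals times the scaling factors.

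Library pairs within a group had a chi-square per gene between 2.45 and 107, so no pair was alike within counting noise. On simulated data for control against overexpression, 11440 genes were tested, with 50 changed at each fold and the same spread in both groups. There the test found 44% of the 1.5-fold and 88% of the 2-fold changes and made 10 wrong calls among 174. In the real libraries 64.4% of genes were called and the tested members mostly spread more in controls. These rates therefore cannot be carried over to the comparison itself. Members, lists and tests were chosen with earlier results of these data known. Every member is accounted for; up to 4 called genes of each pathway section with the smallest p are named, and other genes named there were chosen after their values were seen. Alternatives were other scalings and filters, DESeq2 1.42.0, limma-voom (limma 3.58.1) with quality weights, a replicate block, removal of lowess trends on length or GC content (span 0.3), and leaving out each library. Figures used matplotlib 3.10.9.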

Additional observations from a re-analysis of the deposited data

Results flagged for a closer look

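Each tested member and each called pathway gene named above was examined in its 4 control and its 4 overexpression libraries. In 3 of these 76 sets, 1 library lay far from the rest by Dixon's criterion. Chance meets this criterion in about 1 of 20 sets, so 3 of 76 is no more than that rate. All 3 were control library 3. Sema3e had 126 CPM there, while its 3 fellow controls had 75.1 to 77.2 CPM. Met was at 274 CPM against 159 to 169 CPM, and Rock2 at 224 CPM against 111 to 122 CPM. In each case this library lay toward the overexpression libraries.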

How the results depend on the processing

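Of the 22 tested members, 10 kept their side of the threshold in all 17 alternatives: Sema3b, Sema3c, Sema3f, Sema6b, Sema6c, Sema6d, Plxna3, Plxnd1, Nrp1 and Nrp2. With the trend on exonic length removed, 8 members were higher and 4 lower, and the Plxnb1 log2 fold change turned to -0.088. With the GC trend removed, Sema4a and Sema4b turned to 0.30 and 0.25 and Sema3e (0.17) was lost. limma-voom with quality weights called 4 members lower. Leaving out 1 library gave 2 to 5 lower and 12 or 13 higher, the 5 without control library 3, where Sema4c, Sema4d and Plxnb2 were added. Plxnb3 was lost in 6 alternatives, DESeq2 among them (adjusted p = 0.0521). Library totals alone shifted the median of all genes by 0.13 on the log2 scale and left 13 higher and 2 lower members. The replicate numbers did not pair the libraries (correlations of deviations between -0.119 and 0.0227); with the replicate block 7129 genes were called against 7417, and 13 members were higher and 2 lower. The cause of these changes was not tested. The 9 members under the filter were left out of the main test for low counts, and Plxna4 had 0 in all 8 libraries.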
